A study of Drosophila melanogaster with 3 samples.

Results

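Some of the ovarian small RNAs that were listed as matching the retroelement Penelope differed from the authors' Penelope sequence by 1 or 2 bases wherever they were placed. These inexact sequences were chosen as the distinct sequences of a strain's list with no place marked as an exact match, each counted once per list. They numbered 890 of the 3244 sequences in the 3 lists summed, or 837 of 2670 when a sequence present in several lists is counted once. No sequence was inexact in one list and exact in another. The lists come from ovaries of the Drosophila melanogaster strains A1a, A2d and A2h, all aged 3 to 5 days and kept at 25 degrees, with 1 library per strain. The labels give no genotype beyond the strain name, and do not say whether the strains share a transgene or an ancestor. A1a had 279 inexact and 691 exact sequences, with 401 and 1376 reads. A2d had 528 inexact and 1272 exact sequences, with 733 and 3137 reads, and A2h had 83 inexact and 391 exact sequences, with 84 and 664 reads. The inexact share of sequences was thus 28.8% (25.9 to 31.7%) for A1a, 29.3% (27.2 to 31.5%) for A2d and 17.5% (14.2 to 21.2%) for A2h. Since each strain is a single library, no test between strains was possible, and the lists are set side by side. Ranges in brackets are exact (Clopper-Pearson) 95% binomial intervals. They cover counting error only, because PCR copies of one molecule cannot be told from separate molecules in these lists.

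Penelope belongs to a class of retroelements that encode a reverse transcriptase with a GIY-YIG endonuclease, and its mobilisation in Drosophila virilis is known for causing hybrid dysgenesis. piRNAs bind Piwi-family proteins and guide them to transposon RNA by base pairing, mostly through the bases near their 5′ end. Primary piRNAs of Drosophila tend to begin with U, and in the ping-pong cycle a cut between bases 10 and 11 of one piRNA makes the 5′ end of a partner on the opposite strand, which tends to carry A at base 10. Mismatches between a small RNA and a reference element are known to come from element copies that differ from the reference, from RNA editing, from bases added to 3′ ends and from errors of reverse transcription, amplification and sequencing. The cause of the mismatches described here was not tested. Sequences are written 5′ to 3′ with T for U, and sense means the strand of the element's transcript. A change such as T580A gives the authors' Penelope base first, then the position counted from 1 on the plus strand of Penelope, then the base that the small RNA implies for that strand. Base changes written as A-to-G or G-to-T without a position are in the direction of the read. Penelope ends in direct repeats, so a sequence within them has 2 places, 2780 or 2781 bases apart here, and is given at the left one.

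The most abundant inexact sequences differed from Penelope only at position 580 and its copy in the right repeat. There were 43 such sequences with 154 reads in A1a, 55 with 205 reads in A2d and 4 with 4 reads in A2h, which was 15.4% (11.4 to 20.2%), 10.4% (7.94 to 13.3%) and 4.82% (1.33 to 11.9%) of the inexact sequences. The 5 most-read ones of A2d are printed at the top and include the 4 most-read ones of A1a. The next line is the other of the 5 taken for A1a, which ties with 2 more at 4 reads and leads them by alphabet. The last lines are the other sequence found in all 3 lists and an antisense sequence found in both A1a and A2d. The capital is the base that differs from Penelope.
Sense, 567 to 592: tgttttaacaaacAcggacctcgagc
Sense, 565 to 592: tttgttttaacaaacAcggacctcgagc
Sense, 566 to 592: ttgttttaacaaacAcggacctcgagc
Sense, 565 to 590: tttgttttaacaaacAcggacctcga
Sense, 572 to 597: taacaaacAcggacctcgagccagcc
Sense, 579 to 603: cAcggacctcgagccagccaacaaa
Sense, 565 to 587: tttgttttaacaaacAcggacct
Antisense, 565 to 590: tcgaggtccgTgtttgttaaaacaaa

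A1a listed 40 reads and A2d 24 reads of the sequence at 567 to 592. Of the sequence at 565 to 592, A1a listed 18 reads and A2d 25. The sequence at 566 to 592 followed with 14 reads (A1a) and 12 reads (A2d), and the one at 565 to 590 with 8 and 20. A2h listed none of these. Reads of the sequence at 572 to 597 numbered 3 for A1a, 11 for A2d and 1 for A2h. The 23-nt sequence at 565 to 587 was listed with 2 reads for A1a and with 1 read each for A2d and A2h. These were the only inexact sequences found in all 3 lists. The other sequences of A2h that differ only at position 580, at 570 to 592 and 571 to 593, had 1 read each. The sequence at 579 to 603, which has the changed base at its base 2, had 4 reads in A1a and 1 in A2d. The antisense sequence at 565 to 590 had 1 read in A1a and 2 in A2d. It covers the same positions as the sense sequence at 565 to 590 on the other strand.

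Nearly all of the sequences that differed only at position 580 were sense. In A1a 41 of 43 were sense, with 152 of 154 reads, in A2d 52 of 55, with 201 of 205 reads, and in A2h all 4. Their 5′ ends lay close together but not at 1 base. In A1a 43 of the 152 sense reads began at 567, 29 at 565 and 20 at 566, and in A2d 49 of the 201 sense reads began at 565, 36 at 567, 26 at 572 and 18 at 566. One 3′ end was shared by many of them: 78 of 152 sense reads in A1a (51.3%, 43.1 to 59.5%) and 70 of 201 in A2d (34.8%, 28.3 to 41.8%) ended at 592. The sequences that share this end have different 5′ ends, as the lines at 565, 566 and 567 to 592 show. Position 580 itself lay at bases 12 to 17 of the small RNA in 111 of the 152 sense reads of A1a and 125 of the 201 of A2d. It lay within bases 2 to 8, the part of a piRNA that is known to matter most for target pairing, in 17 and 29 reads. The 4 sense reads of A2h had it at bases 9, 10, 11 and 16.

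No listed read carried the authors' T at position 580, on either strand. A was read in all 57 covering sequences of A1a, in 79 of 81 in A2d and in 10 of 11 in A2h, and G in the other 2 of A2d and the other 1 of A2h. For this reason none of the sequences that differed only there had an exact version with the same ends. The 3 sequences with T580G were single sense reads, and each also carried an A-to-G change a few bases upstream. They were singled out after their values were seen and are printed with both changed bases in capitals.
A2d, 559 to 586, A578G and T580G: tcattgtttgttttaacaaGcGcggacc
A2d, 575 to 600, A578G and T580G: caaGcGcggacctcgagccagccaac
A2h, 569 to 591, A574G and T580G: ttttaGcaaacGcggacctcgag
Read from A, the base that all other covering reads have at 580, the T580G sequences hold A-to-G changes at both positions.

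Nearly all of the remaining inexact sequences (236 for A1a, 473 for A2d, 79 for A2h) were rare. A single read was listed for 95.8% (92.3 to 97.9%) of them for A1a, 89.9% (86.8 to 92.4%) for A2d and 98.7% (93.1 to 100%) for A2h, against 69.3% (65.7 to 72.7%), 66.4% (63.7 to 68.9%) and 74.4% (69.8 to 78.7%) of the exact sequences of A1a, A2d and A2h. The highest count was 3 reads for A1a, 3 for A2d and 2 for A2h, whereas exact sequences reached 42, 102 and 18 reads. Antisense sequences made up 65.7% (59.2 to 71.7%), 65.5% (61.1 to 69.8%) and 78.5% (67.8 to 86.9%) of them in A1a, A2d and A2h, against 57.2% (53.4 to 60.9%), 56.8% (54.1 to 59.6%) and 94.6% (91.9 to 96.6%) of the exact sequences. The intervals of the inexact and exact shares were apart in A2d and A2h and overlapped in A1a. With the sequences at 580 counted too, 56.3% (50.2 to 62.2%) of the inexact sequences of A1a, 59.3% (55.0 to 63.5%) of those of A2d and 74.7% (64.0 to 83.6%) of those of A2h were antisense. A pair of changes was carried by 43 of the 279 inexact sequences of A1a (15.4%), 90 of the 528 of A2d (17.05%) and 24 of the 83 of A2h (28.9%), and position 580 was one of them in 14, 26 and 7. Mean lengths differed little between inexact and exact sequences, at 25.8 ± 1.69 and 25.8 ± 1.60 nt in A1a and 26.0 ± 1.73 and 26.0 ± 1.60 nt in A2d (SD over sequences). Sense sequences of A2h were the exception in these means: the 21 inexact ones averaged 24.0 ± 1.67 nt and the 21 exact ones 25.6 ± 2.01 nt. Of those, 13 inexact and 3 exact sequences were 23 nt long.

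Many of the rare inexact sequences were versions of an exact sequence with the same ends in the same list. Leaving out those that differ only at position 580, 95 of 236 sequences of A1a (40.3%, 33.9 to 46.8%), 225 of 473 of A2d (47.6%, 43.0 to 52.2%) and 32 of 79 of A2h (40.5%, 29.6 to 52.1%) had such an exact counterpart. With the sequences at 580 counted too, the shares were 34.1% for A1a, 42.6% for A2d and 38.6% for A2h. Both sets hold sequences with T580A and another change, which cannot have a counterpart because no listed read has T at 580. Among sequences with 1 mismatch that is not at 580, the shares were 46.6% (39.4 to 53.9%) for A1a, 53.5% (48.4 to 58.6%) for A2d and 47.3% (33.7 to 61.2%) for A2h. The inexact version had fewer reads than its counterpart in 75 of 95 A1a cases, 183 of 225 A2d cases and 21 of 32 A2h cases, and more reads in 0, 3 and 1. Exact sequences with many reads had versions more often than those with few. Of the exact sequences with 10 or more reads, 10 of 13 for A1a, 36 of 48 for A2d and 3 of 7 for A2h had an inexact version, against 19 of 479, 39 of 844 and 10 of 291 of those with a single read. Per 100 exact reads, the sequences with 10 or more reads had 9.74 versions in A1a, 8.27 in A2d and 3.45 in A2h, and the sequences with a single read had 4.18, 4.86 and 3.78. As examples chosen after their values were seen, the 4 versions of the most-read exact sense sequence of A1a and those of an antisense sequence of A2d that lies next to the copied site are printed under the exact sequence, with changed bases in capitals.
A1a, sense, 1128 to 1152, exact, 28 reads: tacgagatcaacggaacctagcctt
A1a, G1131C, 1 read: tacCagatcaacggaacctagcctt
A1a, G1148C, 1 read: tacgagatcaacggaacctaCcctt
A1a, T1151C, 1 read: tacgagatcaacggaacctagccCt
A1a, A1129G, 1 read: tGcgagatcaacggaacctagcctt
A2d, antisense, 589 to 613, exact, 65 reads: tcaatatttatttgttggctggctc
A2d, A601T and C600A, 3 reads: tcaatatttattATttggctggctc
A2d, C600G, 2 reads: tcaatatttatttCttggctggctc
A2d, C600A, 2 reads: tcaatatttatttTttggctggctc
A2d, A603C, 1 read: tcaatatttaGttgttggctggctc

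With position 580 left out, a choice made after seeing the data, G-to-T was the most frequent base change on both strands of A1a and A2d and on the antisense strand of A2h. With 580 counted, T-to-A led on the sense strand of A1a, with 57 of 144 changes against 45 for G-to-T. In A2d T580A alone was in 75 sense sequences, against 68 sense G-to-T changes. A change that is listed at only 1 of 2 places was counted by the share of places. Without 580, G-to-T made up 126 of 267.5 A1a changes (47.1%, 41.0 to 53.3%), 204 of 548 A2d changes (37.2%, 33.2 to 41.4%) and 31 of 96 A2h changes (32.3%, 23.1 to 42.6%). Divided by the G bases of all listed sequences, the rate was 24.8 changes per 1000 G in A1a (20.7 to 29.4), 21.7 in A2d (18.9 to 24.9) and 11.4 in A2h (7.73 to 16.1). Sense and antisense rates lay close together, at 22.4 and 26.3 per 1000 G in A1a and 19.3 and 23.2 in A2d. G-to-C came to 37 changes in A1a, 64 in A2d and 10 in A2h. Counted over reads instead, the G-to-T rate was 14.3 per 1000 G for A1a, 11.5 for A2d and 7.07 for A2h.

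A-to-G changes relative to Penelope were counted by strand, with position 580 left out, so T580G is not among them. On the sense strand they made up 7 of 91 A1a changes (7.69%, 3.15 to 15.2%), 37 of 189 A2d changes (19.6%, 14.2 to 26.0%) and 14 of 20 A2h changes (70.0%, 45.7 to 88.1%). Their rate was 1.78 per 1000 sense A in A1a (0.716 to 3.66), 4.90 in A2d (3.45 to 6.75) and 38.4 in A2h (21.1 to 63.5). The A1a and A2d intervals shared a narrow range, and the A2h interval lay above both. With changes at position 580 counted too, sense A-to-G was 4.86% of the changes for A1a, 13.9% for A2d and 45.2% for A2h, and sense G-to-T was 31.2%, 25.6% and 6.45%. Antisense A-to-G was then 1.11%, 9.09% and 3.95%, and antisense G-to-T 44.9%, 37.5% and 38.2%. On the antisense strand the rates were 0.668 per 1000 A in A1a (0.0809 to 2.41), 6.23 in A2d (4.29 to 8.74) and 1.39 in A2h (0.287 to 4.06). The sense and antisense intervals overlapped in A1a and A2d and were apart in A2h, and the strands were not tested against each other. The sense strand of A2h is thin, with 42 listed sequences and 45 reads, and its 14 changes sat in 12 sequences with 13 reads. Of those 12 sequences, 10 lay in the repeats and 7 were 23 nt long, near the shares of all inexact sense sequences of A2h, of which 16 of 21 lay in the repeats and 13 of 21 were 23 nt long. Of all 42 listed ones, 25 lay in the repeats and 16 were 23 nt long. In A2d 25 of the 29 sense carriers lay in the repeats (86.2%, 68.3 to 96.1%), and in A1a 2 of 6. In comparison, 102 of 215 inexact (47.4%) and 202 of 764 listed sense sequences (26.4%) of A2d lay there, and 63 of 122 (51.6%) and 101 of 418 (24.2%) of those of A1a. The sense A-to-G rate of A2d was 17.6 per 1000 A in sequences with 2 places (12.2 to 24.7) and 0.705 in those with 1 place (0.192 to 1.80). On the antisense strand of A2d the values were 13.6 (8.76 to 20.2) and 2.54 (1.16 to 4.82). In A1a the sense rates, 2.34 (0.283 to 8.42) with 2 places and 1.62 (0.527 to 3.79) with 1 place, overlapped, and so did those of A2h, 55.8 (28.2 to 97.7) and 17.9 (3.70 to 51.3). Among A2h sequences with 2 places the antisense rate was 14.6 (3.01 to 42.0), which overlaps the sense rate there. With 1 place it was 0 (up to 1.89) from 1949 antisense A bases. The G-to-T rate of A2d, in contrast, was 17.3 per 1000 G on the sense strand in sequences with 2 places (9.71 to 28.4) and 19.9 in those with 1 place (15.0 to 26.0).

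Some small RNAs held 2 A-to-G changes relative to Penelope, a count that does not take in T580G. There were 8 such sense sequences in A2d, 2 in A2h and 1 in A1a, and 5 antisense ones in A2d and 1 in A2h. In 6 of the 8 sense ones of A2d and in the 1 of A1a the changed bases were neighbours. The sense pairs of A2h lay 3 and 15 bases apart. Antisense neighbours were T169C and T168C, and T508C and T507C, in A2d, and T355C and T354C in A2h. All of the sense ones of A2d were in the repeats. Pairs of them with different 5′ ends carried the same neighbouring changes at 159 and 160 and at 326 and 327. The sense sequences below are shown because they carry 2 changes of 1 kind in 1 small RNA, and they were picked out after their values were seen.
A2d, 155 to 178, A159G and A160G: cagaGGacagcacttatgacccat
A2d, 158 to 181, A159G and A160G: aGGacagcacttatgacccattgt
A2d, 275 to 303, A282G and A283G: cataattGGcacaccaacctacaaacgac
A2d, 308 to 335, A312G and A313G: ctacGGgacagacacagaaaattgcgct
A2d, 320 to 342, A326G and A327G: cacagaGGattgcgctcacttgt
A2d, 324 to 348, A326G and A327G: gaGGattgcgctcacttgtacagac
A1a, 1835 to 1859, A1850G and A1851G: tctaggtacaacatcGGgaacgcgg
A2h, 531 to 554, A536G and A551G: tcggaGgagaattgaataaaGttg
A2h, 2312 to 2334, A2317G and A2320G: gaattGgaGaaggacgggaaatt
Each of these was a single read. No sense A-to-G change was preceded by G in the Penelope sequence, in 0 of 7 A1a cases, 0 of 37 A2d cases and 0 of 14 A2h cases. G came before 23.6%, 23.3% and 22.8% of the A bases of all listed sense sequences in A1a, A2d and A2h, and the intervals of the counts of 0 reached up to 41.0% in A1a, 9.49% in A2d and 23.2% in A2h. The interval of A2d alone lay below its background. A came before 21 of the 37 changed A of A2d (56.8%, 39.5 to 72.9%; background 36.1%). On the antisense strand of A2d, G preceded 5 of 33 changed A (15.2%, 5.11 to 31.9%; background 21.8%). None of the A-to-G changes was at the last base of a small RNA. This feature was chosen after the values were seen, and the changes are not independent, since the 37 of A2d fall on 24 positions.

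Apart from T580A, the most frequent change of A2h was A574G. The only inexact sequence of A2h with 2 reads was the sense 23-nt sequence at 329 to 351 with A349G. A349G was in 2 sequences with 3 of the 7 covering reads of A2h, A551G by 2 sequences with 2 of 2 covering reads, and A574G by 3 sequences with 3 of 9. A574G was in 0 of 151 covering reads of A1a and 0 of 208 of A2d, which allows shares of up to 2.41% and 1.76% by the interval. A578G, next to the 580 site, was seen in all 3 lists, in 1 of 163 reads of A1a, 7 of 226 of A2d and 1 of 10 of A2h. Sequences with these changes are printed with the changed bases in capitals.
A2h, 329 to 351, A349G, 2 reads: ttgcgctcacttgtacagacGcc
A2h, 531 to 553, A551G, 1 read: tcggaagagaattgaataaaGtt
A2h, 565 to 587, A574G and T580A, 1 read: tttgttttaGcaaacAcggacct
A2h, 570 to 592, A574G and T580A, 1 read: tttaGcaaacAcggacctcgagc
A2h, 559 to 587, A578G and T580A, 1 read: tcattgtttgttttaacaaGcAcggacct

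Changes were spread unevenly along the small RNA. With position 580 left out, the last base was changed in 40 of 970 listed sequences of A1a (4.12%, 2.96 to 5.57%), 61 of 1800 of A2d (3.39%, 2.60 to 4.33%) and 8 of 474 of A2h (1.69%, 0.731 to 3.30%). Counting changes at 580 too, the last base held 12.3% of the changes of A1a, 9.70% of those of A2d and 7.48% of those of A2h. With 580 left out again, every base before the last was changed on average in 0.946% (0.828 to 1.08%) of A1a sequences, 1.08% (0.990 to 1.18%) of A2d sequences and 0.746% (0.599 to 0.919%) of A2h sequences. The intervals of the last base and the earlier bases were apart in A1a and A2d and overlapped in A2h. The base read at a changed last base was A or T in 82.5% of cases in A1a (67.2 to 92.7%), 78.7% in A2d (66.3 to 88.1%) and 87.5% in A2h (47.3 to 99.7%). Exact sequences ended in A or T in 52.4% (48.6 to 56.2%), 54.6% (51.8 to 57.3%) and 56.3% (51.2 to 61.2%) of cases in A1a, A2d and A2h. Those shares give the composition of unchanged ends, not the bases read at changes elsewhere. Of the 227.5 changes of A1a before the last base, without 580, 120 were G-to-T, 10.5 A-to-T, 10 C-to-T, 9 T-to-A and 5 G-to-A. Whether A or T was favoured at the last base in particular was not tested. The most frequent change at the last base was T-to-A, with 7 of 40 in A1a and 19 of 61 in A2d, a change that keeps a last base within A and T. Without its last base, the changed sequence was itself listed in 12 of 40 A1a cases, 20 of 61 A2d cases and 0 of 8 A2h cases. In A2h 5 of the 8 were 23 nt long and could not have a shorter listed form, since no list goes below 23 nt. For exact sequences over 23 nt the shortened form was listed in 21.0% of cases in A1a and 22.9% in A2d. Among the sequences shared by A1a and A2d, the antisense one at 490 to 515 and the sense one at 2321 to 2345 end in such a changed base.
A1a 1 read and A2d 2 reads, 490 to 515, A490T: catcggcaaaccgtcttcagggcacA
A1a 1 read and A2d 1 read, 2321 to 2345, G2345A: aaggacgggaaattaccatttttaA

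Bases 1 to 3 were compared with the bases between them and the last one, with position 580 left out. The share of bases changed was 2.37% (1.98 to 2.81%) at bases 1 to 3 and 0.908% (0.817 to 1.01%) from base 4 to the base before the last in A2d, 1.43% (1.03 to 1.93%) and 0.880% (0.759 to 1.02%) in A1a, and 0.985% (0.539 to 1.65%) and 0.714% (0.561 to 0.895%) in A2h. The intervals were apart in A1a and A2d and overlapped in A2h, whose sense strand had the lower share at bases 1 to 3, at 0.794% (0.0201 to 4.34%) against 1.83% (1.05 to 2.96%). The excess was largest on the antisense strand of A2d, at 3.02% (2.45 to 3.69%) against 1.03% (0.901 to 1.17%). Of the 92 antisense sequences of A2d with a change there, 22 carried T3395A and 9 carried T616A, both at the right edge of a repeat. T3395A is a base at which the 2 repeats of the authors' sequence differ, so these sequences carry it only at their right-hand place. Leaving out both changes, 74 changes remained at bases 1 to 3 of A2d antisense sequences, or 2.38% (1.87 to 2.98%) of these bases. For A1a, both strands, leaving them out gave 1.39% (0.998 to 1.89%) against 0.878% (0.757 to 1.01%), and these intervals overlap. T616A was read in 15 of 188 covering reads of A2d (7.98%, 4.53 to 12.8%) and in 0 of 54 of A1a and 0 of 14 of A2h. Of its 9 sequences 5 began at 617, and 2 of these are printed for the 5′ end they share.
A2d, 592 to 617, T616A, 3 reads: tTtttcaatatttatttgttggctgg
A2d, 594 to 617, T616A, 3 reads: tTtttcaatatttatttgttggct
Base 10, where ping-pong partners tend to carry A, was also counted with position 580 left out. It was changed in 1 of 970 sequences of A1a, 10 of 1800 of A2d and 3 of 474 of A2h. Among sense sequences that differed only at 580, base 10 was the changed base in 5 of A1a, 2 of A2d and 1 of A2h. In these it was read as A. Sequences with another change besides that at 580 are not in the latter counts.

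Most positions were changed in 1 sequence only. A1a had 233 different changes, of which 206 were carried once, A2d had 398 and 319, and A2h had 88 and 78. Besides T580A, the changes carried by the most sequences of a list were G2054C, with 5 sequences in A1a and 9 in A2d, C481A, C1419A and G568T, with 4 each in A1a, and T3395A, T616A and C600A in A2d. C600A was in 14 of 522 covering reads of A2d, 1 of 97 of A1a and 0 of 33 of A2h. The changes carried by the most sequences of A2h were T580A, with 10, and A574G, with 3, and 8 more were carried by 2 each: A349G, A551G, A644G, C1261A, T1371A, C1429A, C1485A and G2054C. Of these 8, A349G and A551G were sense, and the other 6 antisense.

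Beside T580A, 2 further positions differed from Penelope in every covering read of all 3 lists, though few reads cover them. G2054C was in 5 of 5 reads of A1a, 9 of 9 of A2d and 2 of 2 of A2h, all antisense. T2194A was in 2 of 2, 3 of 3 and 1 of 1 reads, from both strands in A1a and A2d. Sequences with G2054C are printed with that base in capitals.
A1a 1 read and A2d 1 read, antisense, 2033 to 2058: tcctGtatgcaaaatctaactatgtc
A2d 1 read and A2h 1 read, antisense, 2052 to 2078: cgtatttgaaatatctgttttcctGta
In all, 13 changes were seen in all 3 lists. These were T580A, G2054C, T2194A, A578G, A594G, A601T, C1356A, C1431A, C1485A, C1755A, C2785A, G491T and G568T. Apart from T580A, G2054C and T2194A they were in a minority of the covering reads of A1a and A2d. G568T was highest among those in A2d, with 8 of 122 reads (6.56%, 2.87 to 12.5%), and was in 5 of 111 in A1a (4.50%, 1.48 to 10.2%) and 1 of 4 in A2h. Every sequence with G568T was sense. C1356A, C1485A, C1755A and C2785A were seen on the antisense strand only, where they are G-to-T changes in the direction of the read.

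Inexact sequences other than those at 580 recurred between lists less often than exact ones. A1a and A2d shared 45 inexact sequences, which was 16.1% (12.01 to 21.0%) of those of A1a and 8.52% (6.28 to 11.2%) of those of A2d. They shared 338 exact sequences, or 48.9% (45.1 to 52.7%) of those of A1a and 26.6% (24.2 to 29.1%) of those of A2d. Of the 45, 29 differed only at position 580, and these held 134 reads in A1a and 163 in A2d. They were 29 of the 43 such sequences of A1a (67.4%, 51.5 to 80.9%) and 29 of the 55 of A2d (52.7%, 38.8 to 66.3%). These shares were higher than those of the exact sequences, with intervals that were apart in A2d and overlapped in A1a. This comparison was not matched for reads. The other 16 were 6.78% (3.92 to 10.8%) of the other inexact sequences of A1a and 3.38% (1.95 to 5.44%) of those of A2d. A1a and A2h shared 4 inexact and 111 exact sequences, and A2d and A2h shared 6 and 157. All 3 lists shared 2 inexact sequences, the ones at 572 to 597 and 565 to 587, and 85 exact ones. Since rare sequences recur less often whatever their match, single-read sequences were also compared. Of the single-read inexact sequences of A1a other than those at 580, 15 of 226 were listed in A2d (6.64%, 3.76 to 10.7%), against 175 of 479 single-read exact sequences (36.5%, 32.2 to 41.0%). For A2d sequences in A1a the shares were 2.59% (1.30 to 4.58%) and 15.3% (12.9 to 17.9%), and for A2h sequences in A2d 5.13% (1.41 to 12.6%) and 32.0% (26.6 to 37.7%). By strand, 35 of the 45 sequences shared by A1a and A2d were sense and 10 antisense. Of the sequences shared with A2h, 2 of 4 were antisense for A1a and 4 of 6 for A2d.

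Changes were also compared between the lists. A change can recur in sequences with different ends, so these counts are not set against those of shared sequences. How many changes would be shared by coincidence was not tested. A1a and A2d had 66 changes in common, of 233 and 398, A1a and A2h had 21, of 233 and 88, and A2d and A2h had 20, of 398 and 88. Among sequences with 2 or more reads, A1a and A2d had 2 changes in common. Within A2d, 79 changes were carried by 2 or more sequences, and for 69 of these the carriers had different 5′ ends. In A1a the numbers were 27 and 23, and in A2h 10 and 8. Changes on both strands numbered 5 in A1a, 11 in A2d and 0 in A2h.

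The bases that mark piRNAs were present in inexact sequences. They were taken as read, so a change that makes T at base 1 or A at base 10 counts too. T3395A and T616A, for instance, were read as T at base 1 in some antisense sequences of A2d. Among sense sequences, T at base 1 was found in 63.1% (53.9 to 71.7%) of inexact and 45.6% (39.8 to 51.5%) of exact sequences of A1a, and in 53.5% (46.6 to 60.3%) and 38.6% (34.5 to 42.8%) of those of A2d. Without the sequences that differ only at position 580, which often begin in the T-rich stretch at 565 to 571, the inexact share was 58.0% (46.5 to 68.9%) for A1a and 51.5% (43.6 to 59.4%) for A2d. Among antisense sequences T at base 1 was found in 70.7% (62.9 to 77.7%) of inexact and 75.4% (70.9 to 79.6%) of exact sequences of A1a, in 80.8% (76.0 to 85.0%) and 71.6% (68.2 to 74.9%) of A2d, and in 72.6% (59.8 to 83.1%) and 74.1% (69.3 to 78.4%) of A2h. A at base 10 was found in 59.0% (49.7 to 67.8%) of inexact and 45.6% (39.8 to 51.5%) of exact sense sequences of A1a, and in 48.8% (42.0 to 55.7%) and 50.6% (46.4 to 54.9%) of those of A2d. Among antisense sequences the shares were 29.3% (22.3 to 37.1%) and 22.8% (18.7 to 27.2%) in A1a and 19.2% (15.0 to 24.0%) and 22.7% (19.7 to 25.9%) in A2d. Of the 21 inexact sense sequences of A2h, 71.4% (47.8 to 88.7%) had T at base 1 and 52.4% (29.8 to 74.3%) had A at base 10.

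Inexact sequences with a change in their 5′ part had no ping-pong partner that carried the change. A partner was counted where an opposite-strand sequence of the same list began with the exact complement of the 10 bases at the 5′ end. With a change in bases 1 to 10, 0 of 124 inexact sequences of A1a (up to 2.93%), 1 of 254 of A2d (0.394%, 0.00997 to 2.17%) and 0 of 45 of A2h (up to 7.87%) had one. The 1 match in A2d joined places that do not overlap, at 850 to 874 and 904 to 929, and so is a match of letters only. With no change in bases 1 to 10, 33 of 155 inexact sequences of A1a had a partner (21.3%, 15.1 to 28.6%), 80 of 274 of A2d (29.2%, 23.9 to 35.0%) and 2 of 38 of A2h (5.26%, 0.644 to 17.7%). Among exact sequences a partner was found for 129 of 691 A1a sequences (18.7%, 15.8 to 21.8%), 314 of 1272 A2d sequences (24.7%, 22.3 to 27.2%) and 2 of 391 A2h sequences (0.512%, 0.0620 to 1.84%). Except for changes listed at only 1 of 2 places, such as T3395A, a partner at the same place for a changed 5′ part must itself be inexact. Inexact sequences are mostly single reads, so the depth of the lists limits this count.

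The share of inexact sequences was compared between regions of Penelope. Leaving out the sequences that differ only at position 580, it was 29.9% (23.9 to 36.5%) in the repeats of A1a, 32.0% (27.8 to 36.3%) in those of A2d and 32.2% (20.6 to 45.6%) in those of A2h. Between positions 1201 and 1700 it was 25.4% (19.5 to 32.0%) for A1a, 22.7% (18.3 to 27.7%) for A2d and 15.1% (10.4 to 21.0%) for A2h. Between 701 and 1200 it was 17.4% (10.1 to 27.1%), 17.6% (11.8 to 24.7%) and 9.09% (1.92 to 24.3%). The intervals of both regions were apart from those of the repeats in A2d and overlapped them in A1a and A2h. Between 1701 and 2200 the share was 23.7% for A1a, 25.3% for A2d and 14.0% for A2h. Between 2201 and 2783 it was 23.5%, 23.7% and 14.9%. The intervals of these further regions overlapped those of the repeats in every list. Antisense sequences with 1 place near the left repeat were counted by their 5′ end. Of those whose 5′ end lies just behind it, at 619 to 700, 48 of 98 were inexact in A2d (49.0%, 38.7 to 59.3%), 44 of them with a single read, beside 2 of 18 in A1a (11.1%, 1.38 to 34.7%) and 4 of 19 in A2h (21.1%, 6.05 to 45.6%). Of those with the 5′ end at 1 to 618, 13 of 26 were inexact for A1a (50.0%, 29.9 to 70.1%), 12 of 25 for A2d (48.0%, 27.8 to 68.7%) and 0 of 1 for A2h. The lists hold no sequence with more than 2 mismatches, so a sequence of the repeats can lack its second place because of its own changes. The inexact share of the 1-place group with the 5′ end at 1 to 618 can therefore be high by construction. That point concerns sequences within the repeat, and those with the 5′ end at 619 to 700 reach past it. The cause of their inexact share in A2d was not tested, and neither share is read as a feature of the site.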

How the data were processed

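Small RNAs from ovaries of strains A1a, A2d and A2h were measured in 1 library each. Per the labels' protocols, RNA of 23 to 29 nt was cut from a gel, ligated to adapters and amplified. The authors deposited, per the file headers, each sequence that matches Penelope with its raw read count, strand, places and mismatches. Not given in the sources used here were the aligner, the trimming, the mismatches allowed and the Penelope entry aligned to. The lists held 1777, 3870 and 748 reads in A1a, A2d and A2h, and no sequence had more than 2 mismatches. Of the lines, 5 were empty and were not analysed here.

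Sequences were read with Python 3.11.15 and shares computed with SciPy 1.17.1. Each sequence was counted once per list. A change listed at 1 of 2 places was weighted by the share of places. Starts count from 0 in the files and are printed from 1. All 1567 listed mismatches had the read base found in the sequence. Position 580 and its copy in the right repeat were treated apart. The counting was tested on simulated data. Sequences were named by reads, the 5 highest per list and those in all 3 lists, and positions by the number of sequences, and others are said to be chosen afterwards. The members and lists were chosen with earlier results of these data known. Alternatives were weighting by reads, single-read sequences, sequences with 2 or more reads, 23 to 29 nt only, 1 place only, leaving out position 580, and leaving out the last base. No p-value was computed, as each strain has 1 library. A count of 0 is given with the upper limit of its exact interval. The genome annotation was not used here.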

Additional observations from a re-analysis of the deposited data

How the results depend on the processing

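Alternatives gave 221 values, of which 134 lay within the interval of the value they were set against (for counts, within 1.5 times) and 87 did not. Those values take in all inexact sequences and count changes at position 580, whereas most base-change values of the report leave 580 out and are listed here as an alternative. The cause was not tested, apart from settings that drop sequences by construction. Values follow in percent, in the order A1a, A2d, A2h unless the strain is named. Weighted by reads, the inexact share was 22.6, 18.9 and 11.2, its antisense part 40.9 in A1a and 48.0 in A2d, the part that differs only at 580 38.4 and 28.0, that with 2 mismatches 11.2 and 13.4, and that with an exact counterpart 24.4 and 35.5. So weighted, sense A-to-G was 8.94 of the changes in A2d, sense G-to-T 18.1 in A1a and 18.1 in A2d, T at base 1 of sense sequences 75.1 and 69.3, and A at base 10 of A2d sense sequences 55.9. Among single-read sequences the inexact share was 33.7, 34.7 and 22.0. Among sequences with 2 or more reads it was 14.2, 15.7 and 0.990, its antisense part 20.0, 41.2 and 0, the part at 580 only 71.4, 40.0 and 0, and that with 2 mismatches 5.71, 8.75 and 0. There the last base held 5.41 of the changes in A1a and 0 in A2h, sense A-to-G 0, 3.92 and 100, sense G-to-T 6.90, 19.6 and 0, antisense A-to-G 0 and 2.67, and antisense G-to-T 62.5 in A1a. An exact counterpart was found there for 8.57, 37.5 and 100, T at base 1 for 72.3 of A2d and 100 of A2h sense and 85.7 and 75.8 of A1a and A2d antisense sequences, and A at base 10 for 0 of A2h sense and 42.9 and 39.4 of A1a and A2d antisense sequences. A2h has 1 such sequence, of 23 nt. Shared sequences then numbered 17 for A1a and A2d and 0 for each pair with A2h, and shared changes 2, 0 and 0. With 1 place only, the antisense share was 65.7, 64.6 and 91.7, the last base held 13.1 in A2d, sense A-to-G 3.10 in A2d, sense G-to-T 46.3 and 41.1, antisense A-to-G 3.93 in A2d and 0 in A2h, antisense G-to-T 44.1 in A2d, T at base 1 of sense sequences 52.5 in A1a and 40.0 in A2h, and A at base 10 of A2d sense sequences 59.3. Without sequences that differ only at 580, the inexact share was 25.5 in A1a and 27.1 in A2d, its antisense part 65.7 and 65.5, sense G-to-T 43.7 and 31.8, an exact counterpart 40.3 and 47.6, and shared sequences 16 for A1a and A2d and 2 for A1a and A2h. Without changes at 580, added after seeing the data, sense A-to-G was 19.6 in A2d and 70.0 in A2h, against 13.9 and 45.2 with them, and sense G-to-T 49.5 in A1a and 36.0 in A2d. Restriction to 23 to 29 nt and leaving out the last base moved none of the values computed. No paired analysis was possible because each strain has 1 library, and for the same reason no replicate could be left out. Depth limits A2h most, with 84 inexact reads, and the part of library or sequencing errors in single-read sequences was not tested.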
